A study of Rattus norvegicus with 192 samples.

Results

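Rat libraries of the nucleus accumbens core were ranked by Fkbp5, and the 36 highest were compared with the 36 lowest. The table holds 159 libraries of polyA RNA, each from a different outbred laboratory rat by its label, and no treatment, sex or age is given in the labels used here. Of these, 147 had at least 100 CPM (expected counts scaled to 1000000 per library) of Drd1, the D1 dopamine receptor of medium spiny neurons, and were taken as accumbens-profile libraries. The libraries were selected on their Fkbp5 level alone, the highest 25% of the 147 as high and the lowest 25% as low, leaving 75 between them. The rat identifiers in the labels come in several formats. High Fkbp5 libraries comprised 16 whose identifier is all digits (numeric label), 19 whose identifier begins E21 (E21 label) and 1 corrected to an E21 identifier. Low Fkbp5 libraries comprised 9 with a numeric label, 20 with an E21 label, 5 corrected to E21, 1 with an AA1 identifier and 1 corrected to another format. No label says what the formats stand for.

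Fkbp5 encodes a co-chaperone of Hsp90 that lowers the hormone affinity of the glucocorticoid receptor. The receptor in turn induces Fkbp5, and for this reason Fkbp5 is widely used, with Sgk1 and Tsc22d3, as a readout of corticosteroid action in brain. The nucleus accumbens core is a ventral striatal region made mostly of GABAergic medium spiny neurons, and it carries glucocorticoid receptors.

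Fkbp5 chose the groups, so its levels are a description. It was 81.2 CPM at the lowest, 85.7 at the median and 116 at the highest in high Fkbp5 libraries, against 35.0, 65.6 and 68.9 CPM in low Fkbp5 libraries. The ranking was a continuum without a step at either boundary. The lowest high library had 81.203 CPM and the next library outside the group 81.198 CPM. The highest low library had 68.940 CPM and the next outside it 68.950 CPM. The median of all 147 was 75.5 CPM. The libraries at both ends stood apart, the highest at 116 CPM with the next at 103 CPM, and the lowest at 35.0 CPM with the next at 50.2 CPM.

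**Figure D1:**
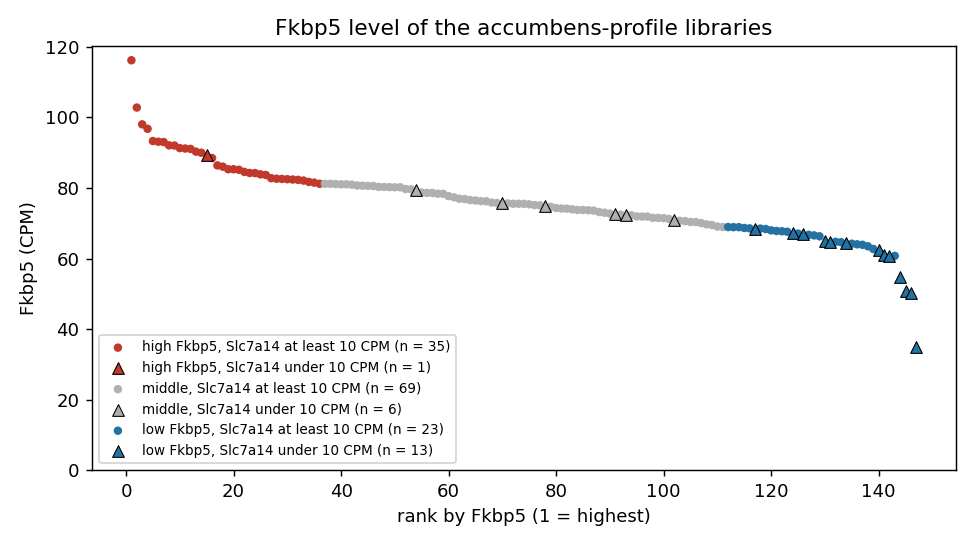
Fkbp5 level (CPM) of 147 accumbens-profile libraries against rank, with rank 1 the highest; colours mark the high, middle and low libraries and triangles mark libraries with Slc7a14 under 10 CPM. The line of points has no gap at the edges of either group, and 13 of the 20 triangles lie in the low group against 1 in the high group.

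Total expected counts were 27.3 ± 10.0 M (M, 1000000 counts) in high Fkbp5 libraries and 22.7 ± 5.33 M in low ones (SD, n = 36 each). The means differed (permutation test, two-sided, p = 0.01532). Xist, transcribed from the inactive X chromosome of females, was above 10 CPM in 19 of 36 high and 20 of 36 low libraries (Fisher's exact test, two-sided, p = 1). The numeric and E21 formats were split between the groups without a detectable difference (Fisher's exact test, two-sided, p = 0.305).

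The other markers of corticosteroid action did not pass the test. Sgk1, a kinase induced by glucocorticoids, was 53.7 CPM at the lowest, 159 at the median and 418 at the highest in high Fkbp5 libraries, against 60.9, 113 and 370 CPM in low ones. The ranges overlapped almost entirely. The log2 change was 0.25 ± 0.18 (SE; limma adjusted p = 0.234). Tsc22d3, a leucine zipper protein induced by glucocorticoids, ran over 47.4, 67.5 and 112 CPM in high Fkbp5 libraries and 36.2, 64.2 and 105 CPM in low ones. Its log2 change was 0.06 ± 0.07 (SE; limma adjusted p = 0.491). The call depends on the processing for both genes. Sgk1 passed under 2 of 31 alternatives, at 0.44 with median-of-ratios scaling and a new ranking (limma adjusted p = 0.0336) and at 0.51 when all 159 libraries were ranked (0.0106), and its adjusted p over the alternatives ran between 0.0106 and 0.995. Tsc22d3 passed under 2 of 31, at 0.22 per log2 unit of Fkbp5 in a slope over the 147 libraries (limma adjusted p = 0.0397) and at 0.17 with 3 cell type scores as covariates (0.0372), within a range of 0.0372 to 0.975. Since neither marker passed in the comparison itself, the groups are not called glucocorticoid response libraries but are named by the Fkbp5 ranking.

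Sgk1 and Tsc22d3 did vary together. Over the 147 libraries their log2 levels had a Pearson r of 0.72 and a Spearman correlation of 0.70 (permutation p = 1e-05 for each, the smallest that 100000 resamples can give, adjusted p = 3e-05 over 3 pairs). Without the 2 libraries farthest from the median of Sgk1, r was 0.70. Within numeric labels r was 0.60 (n = 56) and within E21 labels 0.80 (n = 76). Fkbp5 had an r of 0.15 and a Spearman correlation of 0.11 with Sgk1 (permutation p = 0.0719 and 0.171, adjusted p = 0.072 and 0.26), and an r of 0.14 without the 2 libraries farthest from its median. With Tsc22d3 it had an r of 0.18 and a Spearman correlation of 0.06 (permutation p = 0.0279 and 0.497, adjusted p = 0.042 and 0.50). That r was 0.05 without the 2 libraries farthest from the median of Fkbp5, so it rests on those libraries. Within labels, the r of Fkbp5 with Sgk1 was 0.06 in numeric and 0.27 in E21 libraries, and with Tsc22d3 0.26 and 0.20.

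The transcriptome nonetheless differed widely between the groups. Of the 15326 genes that averaged 1 CPM or more, leaving out Fkbp5, 7643 passed an adjusted p of 0.05, which is 49.9% of genes tested. These were 4412 higher and 3231 lower in high Fkbp5 libraries. Most changes were small, and 236 higher and 217 lower genes had an absolute log2 change of at least 0.5. The median change over all genes tested was 0.02. Split by direction, 28.8% of genes tested were higher and 21.1% lower. A list with about these shares of called members says nothing particular about the list.

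The largest falls were led by genes of cortical glutamatergic neurons. Slc17a7, which loads glutamate into synaptic vesicles of cortical neurons, was 4.39 CPM at the lowest, 80.6 at the median and 607 at the highest in high Fkbp5 libraries, against 29.0, 412 and 1148 CPM in low ones. The groups overlapped over most of this range, and the log2 change was -2.21 ± 0.35 (SE; limma adjusted p = 9.52e-07). The neuropeptide gene Cck fell by 1.94 on the log2 scale, and Tbr1, which specifies neurons of the deep cortical layers, fell by 1.79. Neurod6 fell by 1.66 and Neurod2 by 1.57; both encode transcription factors of excitatory neurons. Rtn4rl2 (-1.76), Smim43 (-1.72), Slc30a3, the zinc transporter of synaptic vesicles (-1.69), Ccn3 (-1.68) and Cplx3 (-1.52) complete the 10 largest falls. Of 8 cortical glutamatergic genes tested, 7 fell and none rose, with a median change of -1.52. Their summed level was 39.6 CPM at the lowest, 142 at the median and 789 at the highest in high Fkbp5 libraries, against 83.2, 558 and 1486 CPM in low ones. In bulk tissue, fewer cells of a type and less RNA per cell cannot be told apart.

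The largest rises were led by Gpr101, an orphan receptor, with 15.8, 38.3 and 64.8 CPM (lowest, median, highest) in high Fkbp5 libraries and 1.48, 17.5 and 53.3 CPM in low ones. Its log2 change was 1.25 ± 0.21 (SE; limma adjusted p = 2.2e-06). Slc7a14, a lysosomal transporter of the cationic amino acid family, had 8.39, 29.9 and 50.9 CPM in high Fkbp5 libraries and 1.02, 15.8 and 46.97 CPM in low ones. Its log2 change was 1.16 ± 0.24 (SE; limma adjusted p = 7.7e-05). Most libraries of both groups overlapped, and a set of low Fkbp5 libraries lay beneath nearly all high ones. The guanine deaminase gene Gda (1.14), the synaptic vesicle gene Sv2c (1.14), Klhl34 (1.05), Zbed6 (0.98), Rplp2l2 (0.94), the exocytosis gene Doc2b (0.93), Pgap1 (0.93) and the GABA-A receptor subunit gene Gabrg3 (0.91) followed. Rplp2l2 is named as a ribosomal protein copy, and its reads may be shared with near-identical genes. Of 18 medium spiny neuron genes tested 17 rose, with a median change of 0.34. Their summed level was 8929 CPM at the lowest, 12367 at the median and 13803 at the highest in high Fkbp5 libraries, against 6110, 10114 and 11974 CPM in low ones. Drd1, which the library filter used, was not taken out of this list's counts and sums. Rgs9, a striatal regulator of G protein signalling, had a median of 268 CPM in high and 190 CPM in low libraries (log2 change 0.48). Pdyn, the prodynorphin gene, had 489 and 371.6 CPM in high and low libraries (0.44).

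Both sets of leading genes follow patterns that a part of the libraries carried. The cortical score, the mean standardised log2 level of the 8 cortical genes over the 147 libraries, was above 0 in 11 of 36 high and 29 of 36 low libraries. Its median was -0.50 in high and 0.72 in low Fkbp5 libraries. Slc7a14 was under 10 CPM in 20 of the 147 libraries, 1 of them high and 13 low in Fkbp5. Of these 20, 19 had an E21 label and none a numeric label. The limit of 10 CPM was chosen after the values were seen. In those 20 libraries the summed ribosomal protein genes had a median of 20430 CPM, against 15110 CPM in the other 127. Klf9 had medians of 64.4 and 127 CPM, Gad2, which makes GABA, 109 and 269 CPM, and the metallothionein genes Mt1 and Mt2A 27.7 and 40.4 CPM, against 14.6 and 19.1 CPM in the other 127. In all, 31 of 36 low and 12 of 36 high libraries had a cortical score above 0 or Slc7a14 under 10 CPM. Slc7a14 and the cortical genes are among the largest changes between these same groups. An uneven split therefore follows from the choice of these measures, and it is a description only.

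**Figure D2:**
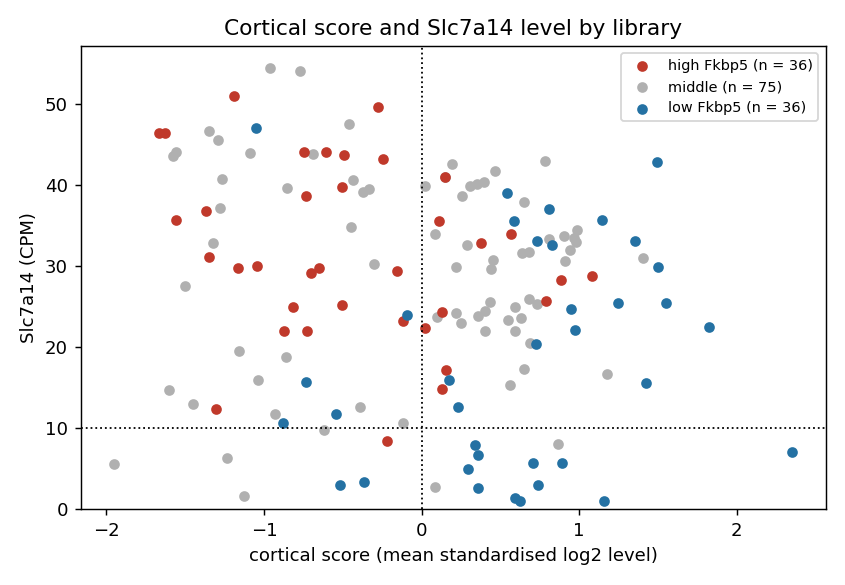
Slc7a14 level (CPM) against cortical score (mean standardised log2 level of 8 cortical genes) for the 36 high, 75 middle and 36 low libraries, with dotted lines at 10 CPM and at a score of 0. High Fkbp5 points are mostly left of 0 and above 10 CPM, and low Fkbp5 points are mostly right of 0 or beneath 10 CPM.

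The number of genes past the threshold moved with these patterns. With the cortical score as a covariate it was 5049, or 32.9% of genes tested. Without the libraries low in Slc7a14 it was 24.2%, with 1725 higher and 1979 lower. With both steps it was 189 (1.23%), of which 59 rose (0.385%) and 130 fell (0.848%). Of these 189 genes, 159 were called in the same direction with all libraries, which is 84.1% of the 189 and 2.08% of the 7643. Between the 37 upper and the 37 lower middle libraries of the ranking, 0 genes (0.0%) passed by limma, with 959 at an unadjusted p under 0.05. The cortical genes make up the score, so their own change is taken out with it by construction, and Slc7a14 set which libraries were left out. These steps also reduce the number of low libraries to 23, and how much of the loss comes from sample number was not tested.

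**Figure D3:**
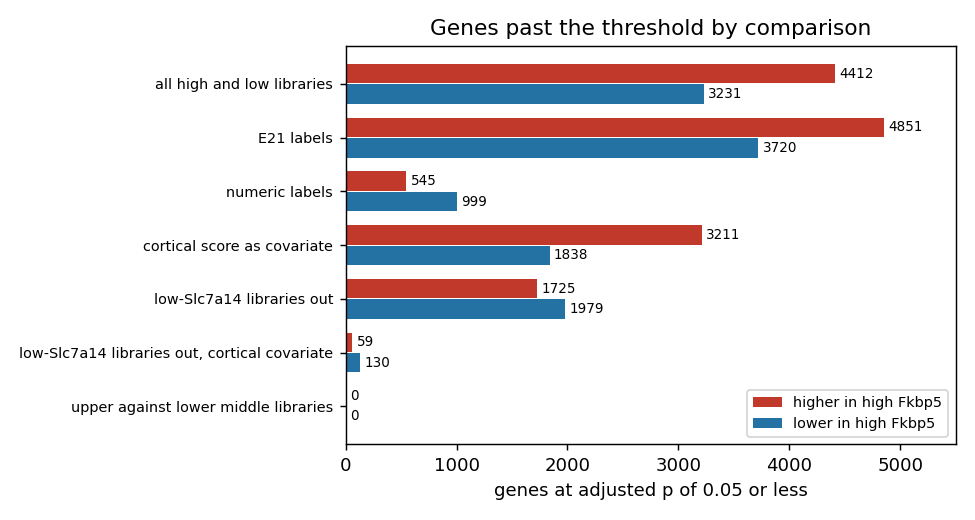
Number of genes past an adjusted p of 0.05 that were higher (upper bar) or lower (bottom bar of each pair) in high Fkbp5 libraries, for 7 comparisons. The count was 4412 higher and 3231 lower with all libraries, and 59 and 130 after the low-Slc7a14 libraries were left out and the cortical score was fitted.

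Glucocorticoid-induced genes did not move in 1 direction. Of 28 tested, without Fkbp5, 6 rose, 6 fell and 16 did not pass, beside the 49.9% called of all genes. Over all genes 28.8% were higher and 21.1% lower, so these counts say nothing particular about the list. The median change was 0.05, against 0.02 over all genes tested. The list's summed level was 966 CPM at the lowest, 1645 at the median and 2553 at the highest in high Fkbp5 libraries, against 1038, 1638 and 2572 CPM in low ones. These sums overlapped throughout. They include Fkbp5, which chose the groups, and so are a description only. After the low-Slc7a14 libraries were left out and the cortical score was fitted, 1 gene rose and 2 fell. Of all genes, 0.385% were higher and 0.848% lower in that setting.

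Klf9, a zinc finger factor induced by glucocorticoids, rose the most of the list. It had 104, 140 and 186 CPM (lowest, median, highest) in high Fkbp5 libraries and 9.05, 110 and 159 CPM in low ones, with a log2 change of 0.73 ± 0.15 (SE; limma adjusted p = 6.38e-05). A tail of 15 low libraries lay under every high library. It still passed after both steps, at 0.33 ± 0.06 (SE; limma adjusted p = 0.00519), but not among numeric labels. Per1, a clock gene with a glucocorticoid response element, had 46.2, 91.9 and 124 CPM in high Fkbp5 libraries and 34.7, 75.4 and 113 CPM in low ones, with a log2 change of 0.29 ± 0.08 (SE; limma adjusted p = 0.00199). After both steps its change was 0.04 (limma adjusted p = 0.878). Pdk4, which restrains pyruvate oxidation, rose by 0.58 and had 0.04 after both steps. Mertk (0.45), Hif3a (0.31) and Map3k6 (0.16) also rose with all libraries. After both steps none of the 3 passed by limma, and Mertk had 0.12, Hif3a 0.39 and Map3k6 0.18, so the estimates of Hif3a and Map3k6 were no smaller than with all libraries. Hif3a, a hypoxia-inducible factor subunit, passed when the libraries were ranked again without those low in Slc7a14 (0.47, limma adjusted p = 0.0306). Map3k6 was low, with a median of 1.24 CPM in high and 0.95 CPM in low libraries.

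Of the 6 that fell, Dusp1 changed the most. Dusp1, the phosphatase that switches off MAP kinases, had 18.1, 26.6 and 56.6 CPM in high Fkbp5 libraries and 20.6, 39.9 and 64.9 CPM in low ones. The groups overlapped, and the log2 change was -0.49 ± 0.09 (SE; limma adjusted p = 1.03e-05). After both steps it was -0.52 ± 0.12 (SE; limma adjusted p = 0.0179). Txnip, an inhibitor of thioredoxin, had 28.9, 40.3 and 66.6 CPM in high Fkbp5 libraries and 33.9, 50.9 and 80.5 CPM in low ones. Its log2 change was -0.37 ± 0.06 (SE; limma adjusted p = 3.46e-06), and after both steps -0.34 (limma adjusted p = 0.0266). With 2 principal components as covariates none of Klf9, Dusp1 and Txnip passed by limma, and Dusp1 did not pass when all 159 libraries were ranked. Among numeric labels Txnip had -0.32 and did not pass (limma adjusted p = 0.0515). Rhou fell by 0.35 with all libraries and had -0.28 after both steps (limma adjusted p = 0.102). It passed as a slope on Fkbp5 without the libraries low in Slc7a14, at -0.52 per log2 unit (limma adjusted p = 0.0313). Sdc4 (-0.29), Mt2A (-0.31) and the connexin gene Gjb6 (-0.23) fell with all libraries, and after both steps they had -0.06, 0.13 and 0.17 and did not pass.

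**Figure D4:**
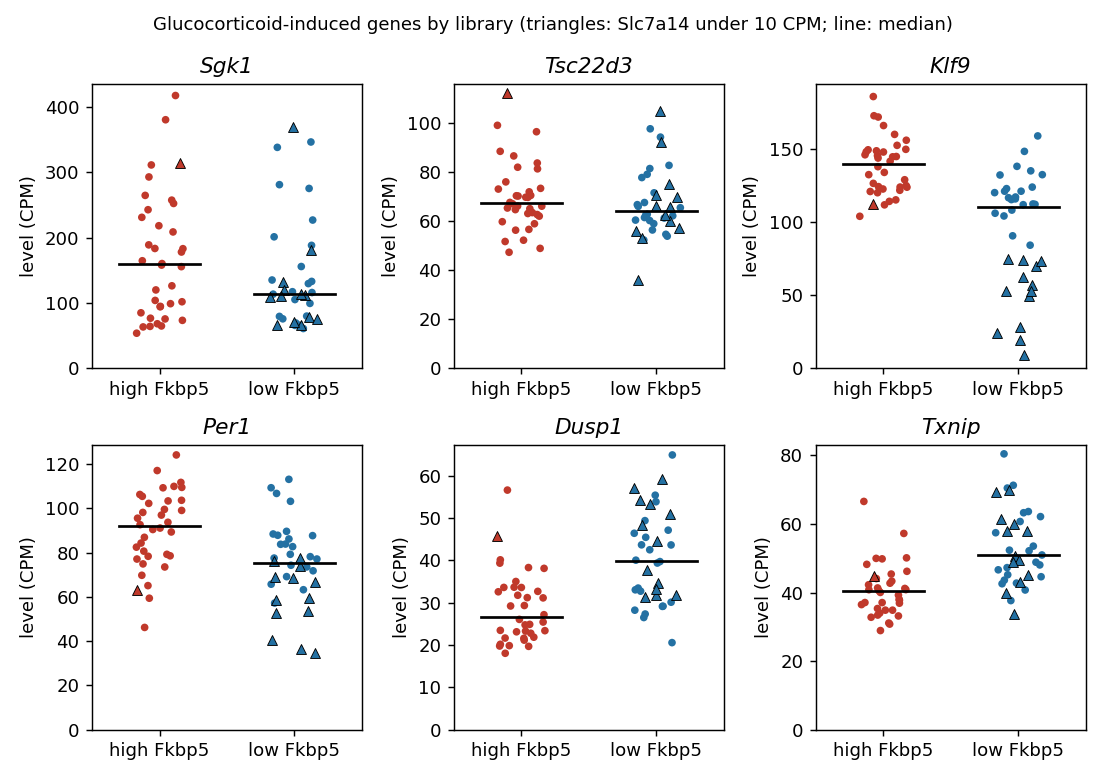
Levels (CPM) of 6 glucocorticoid-induced genes in 36 high (left) and 36 low (right) Fkbp5 libraries, with a line at each median and triangles for libraries with Slc7a14 under 10 CPM. Sgk1 and Tsc22d3 overlap throughout, the lowest Klf9 points are low Fkbp5 triangles, and Dusp1 and Txnip have the lower median in high Fkbp5 libraries.

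The other 14 members of the list, beside Sgk1 and Tsc22d3, had log2 changes between -0.22 and 0.15 and did not pass. They were Bcl6 (0.12), Errfi1 (0.10), Ddit4 (0.13), Plin4 (0.15), Cebpd (-0.11), Angptl4 (0.10), Fam107a (-0.22), Mt1 (-0.12), Cdkn1a (0.08), Nfkbia (-0.06), Arrdc2 (0.04), Klf15 (-0.02), Sult1a1 (0.01) and Zbtb16 (-0.02). Zbtb16, a zinc finger factor induced by glucocorticoids, passed as higher in high Fkbp5 libraries under 6 of 31 alternatives. With the cortical score as a covariate it had 0.40 (limma adjusted p = 0.0489), and ranked again without the libraries low in Slc7a14, with that score, 0.50 (limma adjusted p = 0.0375). Over the alternatives its adjusted p ran between 0.000579 and 0.989, and after both steps it had 0.41 (limma adjusted p = 0.298).

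**Figure D5:**
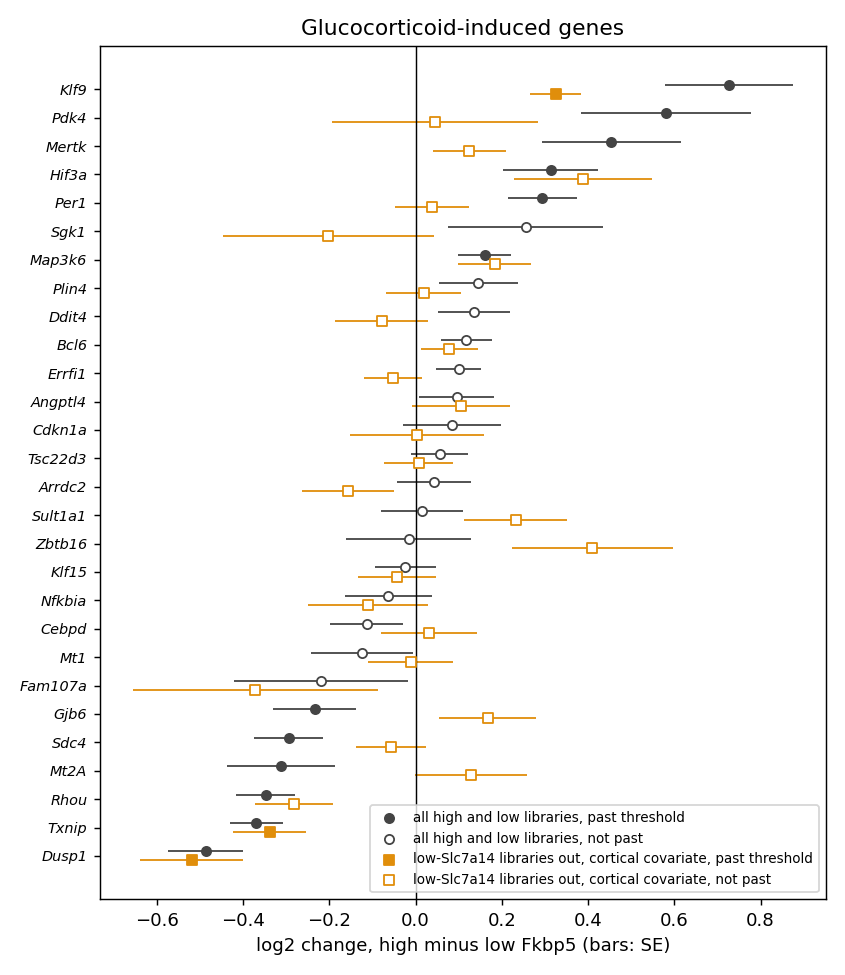
Log2 change (high minus low Fkbp5, bars are SE) of 28 glucocorticoid-induced genes with all 72 libraries (circles) and after the low-Slc7a14 libraries were left out and the cortical score was fitted (squares); filled symbols passed an adjusted p of 0.05. The circles span both sides of 0, with 6 filled on each side, and 3 squares are filled, for Klf9, Dusp1 and Txnip.

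Of 18 genes for corticosteroid receptors, their chaperones and enzymes, 6 rose and 5 fell, with a median change of 0.00. Over all genes 28.8% were higher and 21.1% lower, so these counts say nothing particular about the list. Nr3c1, the glucocorticoid receptor, had 72.4, 93.8 and 108 CPM in high Fkbp5 libraries and 43.0, 84.6 and 112 CPM in low ones (log2 change 0.19, limma adjusted p = 0.00508). Nr3c2, the mineralocorticoid receptor, had 57.3, 75.8 and 94.0 CPM in high and 47.005, 59.1 and 91.2 CPM in low libraries (0.28, limma adjusted p = 1.26e-06). Both receptors overlapped between the groups. The coactivator genes Ncoa2 (0.28) and Ncoa1 (0.15) and the chaperone genes Hsp90aa1 (0.47) and Hsp90ab1 (0.07) also rose. Crh, the corticotropin-releasing hormone gene, fell by 0.57, its binding protein gene Crhbp fell by 0.43 and its receptor gene Crhr1 fell by 0.33. The phosphatase gene Ppp5c (-0.14) and the co-chaperone gene Fkbp4 (-0.11) fell as well. Hsd11b1 (-0.19), H6pd (0.11), Ptges3 (-0.08), Abcb1a (0.11), Stip1 (-0.03), Ppid (0.02) and Bag1 (-0.02) did not pass. None of the 18 passed by limma after both steps (0 at an unadjusted p under 0.05), where Nr3c1 had -0.01 and Nr3c2 0.10.

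Clock output and Per genes leaned one way. Of 11 tested, 7 rose and none fell, with a median change of 0.16, beside 28.8% higher and 21.1% lower of all genes. Per3 had a median of 55.97 CPM in high and 43.9 CPM in low libraries (log2 change 0.33), and the PAR-domain factor gene Tef had 499 and 445 CPM (0.19). In the Bmal1 arm of the clock 4 of 5 rose and 1 fell, with Clock at 0.25 and Npas2 at 0.16. None of these 16 genes passed by limma after both steps, with 3 clock output and 1 Bmal1 arm genes at an unadjusted p under 0.05. No label gives the time of day of sampling.

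Immediate early genes fell more often than they rose, 11 against 2 of 22, with a median change of -0.22. Among all genes tested, 21.1% were lower and 28.8% higher. Btg2 had a median of 7.53 CPM in high and 11.7 CPM in low libraries (log2 change -0.63), and Dusp6, a phosphatase of ERK, 13.9 and 20.6 CPM (-0.48). After both steps 3 of the 22 still fell, Btg2 at -0.44 and Dusp6 at -0.31 among them, beside 0.848% lower of all genes in that setting. In cholesterol synthesis 12 of 15 genes fell and none rose, with a median of -0.20. Dhcr7, which makes cholesterol in the last step of one branch, had 20.5 and 25.9 CPM in high and low libraries (-0.32), and Msmo1 89.2 and 115 CPM (-0.36). After both steps 1 of the 15 fell, Dhcr7 at -0.20, beside the same 0.848% lower of all genes.

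Heat shock genes were mixed, with 4 of 13 higher (Hsph1 at 0.26 and Hspa4l at 0.32 among them) and 2 lower. Of 13 endoplasmic reticulum stress genes 6 fell, Atf4 (-0.26) and Ddit3 (-0.28) among them, and 1 rose. Of 12 interferon response genes 3 fell, with Ifi27 at -0.56 and Rsad2 at -0.29, and none rose. In these lists no gene passed by limma after both steps, with 2 heat shock, 0 endoplasmic reticulum and 1 interferon genes at an unadjusted p under 0.05. With all libraries, the heat shock counts and the interferon falls lie near the 28.8% higher and 21.1% lower of all genes.

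Markers of other cell types are given beside the 28.8% of all genes that were higher and the 21.1% that were lower, and their part in the results was not tested. Of 13 mature oligodendrocyte genes 7 fell, with a median change of -0.19. Their summed level was 11247 CPM at the lowest, 17003 at the median and 22789 at the highest in high Fkbp5 libraries, against 11135, 19091 and 40353 CPM in low ones. Cldn11 fell by 0.30, and Mbp, a myelin protein gene, by 0.37, although with quantile normalization Mbp was 0.10. After both steps 4 of the 13 fell, beside 0.848% lower of all genes in that setting. Among numeric labels none of the 13 passed by limma (1 at an unadjusted p under 0.05). Microglia genes fell in 5 of 10 (Aif1 -0.26, C1qb -0.29), astrocyte genes in 3 of 10 (Sox9 -0.41, Gfap -0.36) and endothelial genes in 3 of 9 (Cldn5 -0.24, Esam -0.18), with none higher. Red blood cell genes fell in 3 of 7, with Hba-a1 at -0.50 and Hba-a2 at -0.49, genes whose reads may be shared between near-identical copies. In oligodendrocyte precursor genes 1 of 7 rose (Tnr 0.27) and 2 fell (C1ql1 -0.34 among them). Of 8 mural genes 1 rose (Rgs5 0.39) and 1 fell (Tagln -0.30), and of 8 meningeal fibroblast genes 1 fell (Col1a1 -0.33), with Igf2 (-0.34) not passing. The 2 ependymal genes tested, Foxj1 (0.11) and Dnah5 (0.08), and the 3 midbrain dopamine genes, such as Ret (0.13) and Ddc (-0.03), did not pass. The microglia and mature oligodendrocyte lists had larger shares lower than all genes. The astrocyte, endothelial and red blood cell falls rest on 3 members each, with Hba-a1 and Hba-a2 among the last. In the other lists of this paragraph the calls in either direction rest on 1 or 2 members or none. After both steps no gene of the lists other than mature oligodendrocyte passed by limma, with 0 microglia, 0 astrocyte, 1 endothelial and 1 red blood cell gene at an unadjusted p under 0.05. Among numeric labels none of these 4 lists had a gene past the threshold by limma, with 1 endothelial and no other gene at an unadjusted p under 0.05.

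The pattern differed between label formats. Among E21 labels (19 high, 20 low) 8571 genes passed, 55.9% of those tested (31.7% higher, 24.3% lower). Among numeric labels (16 high, 9 low) 1544 passed, 10.1% (3.56% higher, 6.52% lower). A total of 910 genes passed in both, 58.9% of the numeric and 10.6% of the E21 calls, and 714 of them in the same direction. In a test of the difference itself, 4940 genes had a change that differed between the formats (32.2%), and 453 (2.96%) without the low-Slc7a14 libraries, which include none with a numeric label. Klf9 had a log2 change of 1.10 in E21 libraries (limma adjusted p = 7.84e-05) and 0.14 in numeric ones (limma adjusted p = 0.304). Per1 had 0.55 in E21 and 0.04 in numeric libraries. Dusp1 fell in both, by 0.37 and 0.61. Mt1 passed in both formats with opposite signs, at -0.47 in E21 libraries (limma adjusted p = 0.00602) and 0.51 in numeric ones (limma adjusted p = 0.00618). Sgk1 and Tsc22d3 passed in neither format, with 0.52 and 0.04 in E21 and 0.11 and 0.10 in numeric libraries. The cortical list fell in 7 of 8 genes in each format. Medium spiny neuron genes rose in 14 of 18 in each, again without taking out Drd1.

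Genes near Fkbp5 on chromosome 20 moved in both directions. Of 41 tested genes that start within 1 Mb of the start of Fkbp5, 11 rose and 8 fell. These counts lie near the 28.8% higher and 21.1% lower of all genes, so they say nothing particular about the neighbours. Their median change was 0.02, as over all genes.

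After both steps, the largest rise among genes without a locus-number or pseudogene symbol was that of Rplp2l2, at 1.57 ± 0.41 (SE; limma adjusted p = 0.0368), with the same doubt about shared reads. Lsm6l1, also named as a copy of another gene, rose by 0.65 (limma adjusted p = 0.05 after rounding) and Pik3r5, a regulatory subunit of PI3-kinase gamma, by 0.40 (limma adjusted p = 0.0271). The largest falls were those of Dusp1, at -0.52 as above, Evi2a at -0.46 (limma adjusted p = 0.0127) and the myelin gene Opalin at -0.46 (limma adjusted p = 0.0118). Among the genes that led the rises with all libraries, Doc2b also passed after both steps, at 0.34 (limma adjusted p = 0.0231). Rgs9 rose by 0.33 (limma adjusted p = 0.00519), as the 1 medium spiny neuron gene of 18 to pass, beside 0.385% higher of all genes. The genes named for this ranking after both steps were chosen after their values were seen.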

How the data were processed

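RNA of the nucleus accumbens core was processed by the authors with kallisto 0.48, as listed per the submitters' processing notes, which name no annotation or genome build. Judged from its numbers, the deposited table holds log2(expected count + 1) per gene. A further 33 labelled samples, with a note of removal, were not analysed here. Values were back-transformed, scaled to CPM and tested as log2(CPM + 1), which understates changes of low genes. Accumbens-profile libraries had Drd1 of at least 100 CPM. limma 3.58.1 (R 4.3.3), with intensity trend, two-sided, was adjusted by Benjamini-Hochberg over all genes except Fkbp5, at 0.05, and tested on simulated data. Figures used matplotlib 3.10.9; other values used Python 3.11.15, pandas 2.3.3, numpy 2.4.6 and scipy 1.17.1. Replicates are libraries of different rats by label.

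The libraries, gene lists and tests were chosen with earlier results of these data known. The text names the 10 largest rises and falls that passed (no locus-number symbols or pseudogenes), every tested glucocorticoid-induced and corticosteroid receptor gene, and 2 members of each other list with the smallest p. Neighbours of Fkbp5, which the rule also takes, are given as counts. Other scalings, filters, groupings and covariates were tried.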

Additional observations from a re-analysis of the deposited data

Results flagged for a closer look

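The change between high and low Fkbp5 libraries differed between numeric and E21 labels, by limma's interaction test, for 4940 of 15326 genes, and for 453 without the libraries low in Slc7a14. Values here are the log2 change in numeric libraries minus that in E21 libraries. Of the genes named above with a called difference, the log2 change was higher (more positive or less negative) in numeric libraries for Sdc4 (0.55), Mt2A (1.06), Mt1 (0.97), Hsd11b1 (0.49), Bag1 (0.41), Ddit3 (0.39) and Msmo1 (0.28). The same held for C1ql1 (0.45), Aif1 (0.46), C1qb (0.72), Cldn5 (0.49), Esam (0.47), Hba-a1 (0.95) and Hba-a2 (0.96). It was lower in numeric libraries for Gpr101 (-1.38), Slc7a14 (-1.90), Gda (-1.79), Sv2c (-1.51), Zbed6 (-1.66), Pgap1 (-1.54), Gabrg3 (-1.20), Klf9 (-0.96) and Per1 (-0.51). It was also lower for Bcl6 (-0.53), Ncoa2 (-0.53), Ncoa1 (-0.26), Nr3c1 (-0.44), Hsp90aa1 (-0.98), H6pd (-0.29), Clock (-0.51), Dusp6 (-0.37), Hspa4l (-0.44), Tnr (-0.67) and Rgs5 (-0.84). The numeric format holds 9 low libraries and none of the 20 low in Slc7a14, 19 of which have an E21 label, so label format and this pattern cannot be told apart with all libraries.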

How the results depend on the processing

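Precision is limited by sampling: 9 low libraries have a numeric label and 23 low libraries remain without those low in Slc7a14. Groups were made from a measured gene, and every gene shares its library with Fkbp5. Broader patterns differed with the Fkbp5 ranking. The median cortical score was -0.50 in high and 0.72 in low libraries. The first principal component had medians of 10.1 and -6.42, and the second 8.77 and -7.70. Why Fkbp5 moved with these patterns was not tested.

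The share of genes past the threshold was 49.9% of 15326. Scaling, pseudocount, a minimum of 5 CPM, wider groups, label format, depth, Xist, Dbp and Fos left between 6576 and 9107 genes. The count was 9925 for a slope on Fkbp5, 9713 over all libraries, 8571 among E21 labels and 6271 with 3 cell type scores. Without a filter the share was 21.6% (7403 genes), of 34236 tested. It was 10.1% (1544) among numeric labels, 32.9% (5049) with the cortical score and 0.0% by limma between the upper and lower middle libraries (959 genes at an unadjusted p under 0.05). The next alternatives were chosen after seeing the data. The count was 8355 when ranked after removal of the cortical slope and 7965 without corrected and other labels. The share was 24.5% (3750) in the libraries with the lower cortical score, 25.6% (3916) with cortical and medium spiny neuron scores, 24.2% without the libraries low in Slc7a14 and 1.23% (189) with the cortical score as well. Ranked again without those libraries it was 6.43% (985), and as a slope 10.5% (1603). With the ribosomal protein sum and the cortical score it was 9.33% (1430), and with 2 principal components 0.104% (16). The cause of each change was not tested. The 4940 genes that differed between formats were 453 without the libraries low in Slc7a14. The depth difference had a permutation p of 0.09996 with 49 and 0.08164 with 73 libraries per group, and the Xist and label tests stayed on the same side of 0.05. No paired analysis was possible because the labels give no shared replicate numbers.

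For 106 named genes under these alternatives, 2304 of 3278 log2 changes kept their direction and side of the threshold, 605 kept the direction and no longer passed, 99 kept the direction and now passed, and 270 changed sign. No gene passed with opposite signs with all high and low libraries and under an alternative. Alternatives could still differ from each other. Mt1 passed at 0.51 among numeric labels (limma adjusted p = 0.00618) and at -0.47 among E21 labels (limma adjusted p = 0.00602). Of the 270, 114 passed with all libraries alone, 10 under the alternative alone and 146 in neither. Their log2 changes, high minus low Fkbp5 or per log2 unit of Fkbp5 for slopes, follow. Gda was -0.0065, Rtn4rl2 0.0018, Slc30a3 0.22, Neurod2 0.039, Per1 -0.035, Mt2A 0.32, Gjb6 0.30, Errfi1 -0.019, Cebpd 0.13, Mt1 0.080, Nfkbia 0.038, Arrdc2 -0.050, Klf15 0.078 and Zbtb16 0.48 with the first and second principal components as covariates. Ncoa2 was -0.065, Ncoa1 -0.024, Nr3c1 -0.060, Ppp5c 0.0092, Hsd11b1 0.18, H6pd -0.012, Stip1 0.074, Bag1 0.15, Clock -0.031, Atf4 0.0060, Ddit3 0.091, Ifi27 0.15, C1ql1 0.0047 and Tnr -0.14 in that same setting. Gfap was 0.096, Aif1 0.0067, C1qb 0.058, Cldn5 0.036, Esam 0.027, Tagln 0.081, Igf2 0.098, Dnah5 -0.075, Hba-a1 0.22, Hba-a2 0.25 and Ddc 0.090 in that same setting. Klhl34 was -0.052, Map3k6 -0.017, Bcl6 -0.018, Angptl4 -0.012, Fam107a 0.13, Tsc22d3 -0.027, Nfkbia 0.032, Sult1a1 -0.025, Zbtb16 0.021, Abcb1a -0.022, Stip1 0.022, Ppid -0.027, Per3 -0.011 and Tef -0.0025 in the upper against the lower middle libraries. Rgs5 was -0.021 and Foxj1 -3.7e-06 in that same setting. Zbed6 was -0.050, Sdc4 0.0057, Mt2A 0.34, Gjb6 0.0019, Bcl6 -0.21, Cebpd 0.062, Fam107a 0.34, Mt1 0.51, Nfkbia 0.029, Arrdc2 -0.052, Klf15 0.10, Zbtb16 0.16, Ncoa2 -0.035 and Nr3c1 -0.072 among numeric labels. Hsp90aa1 was -0.12, Hsd11b1 0.095, H6pd -0.066, Ptges3 0.019, Abcb1a -0.042, Bag1 0.22, Clock -0.063, Tnr -0.14, C1qb 0.13, Cldn5 0.050, Esam 0.10, Rgs5 -0.14, Dnah5 -0.081 and Hba-a1 0.029 in that same setting. Hba-a2 was 0.055, Ret -0.061 and Ddc 0.11 in that same setting. Slc17a7 was 0.15, Tbr1 0.071, Slc30a3 0.024, Ccn3 0.26, Neurod2 0.11, Cplx3 0.092, Sgk1 -0.020, Sult1a1 -0.032, Zbtb16 0.22, Stip1 0.031 and Ppid -0.012 with libraries ranked by Fkbp5 after removal of its slope on the cortical score, with that score as a covariate. Slc17a7 was 0.016, Rtn4rl2 0.038, Slc30a3 0.16, Neurod6 0.0095, Neurod2 0.070, Sgk1 -0.0048, Angptl4 -0.051, Fam107a 0.17, Tsc22d3 -0.023, Arrdc2 -0.10, Zbtb16 0.47, Abcb1a -0.026, Stip1 0.074 and Ppid -0.013 with the high and low 25% of the libraries with the lower cortical score. Foxj1 was -0.074 and Dnah5 -0.028 in that same setting. Slc17a7 was 0.032, Tbr1 0.041, Slc30a3 0.22, Neurod6 0.029, Neurod2 0.054, Mt2A 0.064, Gjb6 0.054, Ddit4 -0.023, Sgk1 -0.10, Tsc22d3 -0.0063, Arrdc2 -0.066, Zbtb16 0.50, Abcb1a -0.064 and Stip1 0.049 with libraries ranked again without those with Slc7a14 under 10 CPM and with the cortical score as a covariate. Bag1 was 0.028, Igf2 0.045, Foxj1 -0.091, Dnah5 -0.061, Hba-a1 0.037 and Hba-a2 0.010 in that same setting. Slc17a7 was 0.52, Tbr1 0.33, Rtn4rl2 0.0074, Slc30a3 0.53, Ccn3 0.26, Neurod6 0.17, Neurod2 0.091, Mt2A 0.077, Gjb6 0.11, Ddit4 -0.029, Sgk1 -0.18, Mt1 0.0012, Arrdc2 -0.056 and Klf15 0.096 with a slope on log2 Fkbp5 without the libraries with Slc7a14 under 10 CPM and with the cortical score as a covariate. Zbtb16 was 1.46, Nr3c1 -0.17, Abcb1a -0.28, Stip1 0.13, Bag1 0.12, Igf2 0.061, Foxj1 -0.30, Dnah5 -0.28, Hba-a1 0.13 and Hba-a2 0.12 in that same setting. Slc30a3 was 0.020, Neurod2 0.077, Gjb6 0.010, Sgk1 -0.082, Arrdc2 -0.078, Zbtb16 0.40, Ppp5c 0.029 and Stip1 0.043 with the cortical score as a covariate. Slc30a3 was 0.0014, Neurod2 0.051, Gjb6 0.12, Klf15 0.056, Zbtb16 0.54, Ppp5c 0.052, Stip1 0.014, Ppid -0.0053, Tagln 0.042, Igf2 0.0068 and Ddc 0.038 with the cortical and medium spiny neuron scores as covariates. Slc30a3 was 0.21, Neurod2 0.099, Mt2A 0.13, Gjb6 0.17, Errfi1 -0.053, Ddit4 -0.079, Sgk1 -0.20, Cebpd 0.031, Arrdc2 -0.16, Zbtb16 0.41, Nr3c1 -0.0058, Hsd11b1 0.064, Abcb1a -0.040 and Stip1 0.057 without the libraries with Slc7a14 under 10 CPM and with the cortical score as a covariate. Bag1 was 0.079, Ifi27 0.0080, Tnr -0.0019, Tagln 0.0057, Igf2 0.068, Hba-a1 0.054, Hba-a2 0.064 and Ddc 0.016 in that same setting. Slc30a3 was 0.11, Ccn3 0.011, Neurod2 0.089, Gjb6 0.17, Errfi1 -0.0023, Sgk1 -0.0040, Cebpd 0.041, Arrdc2 -0.021, Klf15 0.048, Zbtb16 0.42, Ppp5c 0.031, Hsd11b1 0.031, Stip1 0.030 and Bag1 0.090 with the cortical score and ribosomal protein sum as covariates. Tagln was 0.016 and Ddc 0.030 in that same setting. Ccn3 was 0.16, Neurod2 0.10, Gjb6 0.089, Klf15 0.11, Zbtb16 0.41, Ppp5c 0.070, Bag1 0.016 and Atf4 0.0033 with the cortical, oligodendrocyte and astrocyte scores as covariates. Mertk was -0.049, Mt2A 0.055, Bcl6 -0.039, Plin4 -0.044, Mt1 0.23, Nfkbia 0.047, Arrdc2 -0.051, Zbtb16 0.0055, Nr3c1 -0.0041, Hsp90aa1 -0.048, H6pd -0.0093, Ptges3 0.010, Abcb1a -0.13 and Bag1 0.061 without the libraries with Slc7a14 under 10 CPM. Tnr was -0.013, Rgs5 -0.12, Dnah5 -0.076 and Ddc 0.019 in that same setting. Fam107a was 0.76, Mt1 0.021, Tsc22d3 -0.082, Sult1a1 -0.11, Hsd11b1 0.084, Ppid -0.075, Foxj1 -0.25, Dnah5 -0.31 and Ret -1.77 with all libraries of the table. Tsc22d3 was -0.0030, Cdkn1a -0.091, Arrdc2 -0.035 and Sult1a1 -0.085 with log2 Fos as a covariate. Nfkbia was 0.025, Klf15 0.014, Ppid -0.0045 and Dnah5 -0.0055 with median-of-ratios scaling, ranked again. Klf15 was 0.13 and Ppid -0.018 with a slope on log2 Fkbp5 over all accumbens-profile libraries. Klf15 was 0.028 and Zbtb16 0.011 with libraries ranked within label format. Sult1a1 was -0.0053, Zbtb16 0.0026 and Ppid -0.0013 with all libraries split at the median of Fkbp5. Sult1a1 was -0.14 among E21 labels. Sult1a1 was -0.0041 with log2 Dbp as a covariate. Ppid was -0.0075 and Mbp 0.095 with quantile normalization. Bag1 was 0.00063 and Dnah5 -0.012 with the log2 total expected counts as a covariate.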
